A study of Mus musculus with 6 samples.

Results

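Fanconi and double-strand break repair genes were examined in mouse bone marrow cells sorted for a high activity of aldehyde dehydrogenases (ALDHbr cells). The set was a list of 41 gene symbols, put together by pathway and with earlier results of these data known, and each of the 41 had a row among the 21606 genes of the deposited count table. The Fanconi genes were split into 9 genes of the core complex and its ubiquitin-conjugating enzyme and 5 genes of the FANCD2-FANCI pair and of incision. The others were 5 genes of DNA end resection, 11 of homologous recombination, 5 of damage signalling and 6 of end joining. There were 3 libraries from male mice and 3 from female mice, all wild type and of the C57BL/6 inbred strain, and the sex of the mice was the difference compared. The sources used here give neither the age of the mice nor the sorting gate, and they do not say that each replicate was a separate animal, so a p-value covers the spread between samples that may be technical copies. RNA was counted in bulk by BRB-seq, in which each sample is barcoded at reverse transcription from the poly(A) tail, so the reads lie near transcript 3′ ends. In bulk RNA, fewer cells of a type and less RNA per cell cannot be told apart.

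The Fanconi pathway removes crosslinks that join the strands of DNA, among them those left by reactive aldehydes. Its core complex attaches ubiquitin to the FANCD2-FANCI pair, nucleases then cut the crosslink out, and the resulting break is mended by homologous recombination, which copies the sister DNA molecule. End joining instead ligates broken ends directly and can act throughout the cell cycle. Inherited loss of Fanconi genes leads to bone marrow failure, and mice that lack both a Fanconi gene and the aldehyde-clearing enzyme ALDH2 lose blood stem cells.

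The libraries held 679724 to 880074 counts in male mice and 1199551 to 1475224 in female mice, so that female libraries were 1.65 times as deep on average. Xist, which shuts down an X chromosome in females, had 0 to 2 counts in male libraries and 225 to 297 in female ones, and 4 Y-linked genes together had 118 to 164 counts in male libraries and 0 to 1 in female ones. All 10 stem and progenitor markers were detected, at summed levels of 1217 to 1342 counts per 1e+06 normalised counts (CPM) in male libraries and 1248 to 1295 in female ones. Immature myeloid markers summed to 13316 to 14339 CPM in male libraries and 14827 to 15554 in female ones. The lower male sum was not shared by most of these 7 genes. Their log2 fold changes, male minus female, were above 0 in 4 and below in 3, with a median of 0.045. Of other cell types, the lists of erythroid, megakaryocyte, mast cell, T and natural killer cell, stromal and lung epithelial genes summed higher in every male library than in any female one, and those of B lineage and plasma cells, like immature myeloid ones, lower. Erythroid genes summed to 224 to 374 CPM in males and 96.9 to 117 in females, megakaryocyte genes to 39.6 to 113 and 25.1 to 31.4, mast cell and basophil genes to 172 to 211 and 126 to 146, stromal genes to 178 to 336 and 135 to 169, and lung epithelial genes to 237 to 476 and 152 to 217. B lineage genes summed to 64.9 to 75.9 CPM in males and 94.2 to 98.9 in females, and plasma cell genes to 9260.4 to 10849.5 and 11480 to 13438. The part of these lists in the repair gene values was not tested. The barcodes of these libraries shared a pool with 10 lung samples. Whether reads of those samples entered the lung epithelial or repair gene counts was not tested. The T cell receptor genes Cd3d and Cd3g had at most 3 counts in any library. Late neutrophil genes summed to 22.9 to 33.3 CPM in males and 31.6 to 37.9 in females, monocyte and macrophage genes to 2180.3 to 2556 and 2213 to 2552, and T and natural killer cell genes, nearly all Nkg7, to 153 to 170 and 129 to 149.

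Among promoters, the stretch from 250 bases before to 50 after each gene's start in RefSeq (GRCm38.p6), 34 of the 41 repair genes were matched. Of these 34 genes, 6 (17.6%) held a site for E2F factors, which switch on genes of DNA synthesis, spelled TTTCCCGC, TTTGGCGC, TTTCGCGC or TTTGCCGC on either strand. The share was 42.9% of 28 genes of S phase and DNA replication, 5.57% of 6719 tested genes with a promoter in the table and 2.61% of all 27025 genes with one. The 6 were Fancg, Brca2, Bard1, Rad51c, Chek2 and Xrcc6. The shorter CCAAT letters, on either strand, were in 61.8% of the repair genes and in 43.1% of tested genes. A match is a description of these letters and not a measured binding site. The promoters of Bard1, of Rad51c and of Xrcc6 are shown because these genes lead the levels or the fold changes described below. Each is read 5′ to 3′ on the gene's own strand, with the E2F letters in capitals, and lies at chr1:71102923-71103222 (minus strand), chr11:87404905-87405204 (minus strand) and chr15:82016119-82016418 (plus strand).
Bard1: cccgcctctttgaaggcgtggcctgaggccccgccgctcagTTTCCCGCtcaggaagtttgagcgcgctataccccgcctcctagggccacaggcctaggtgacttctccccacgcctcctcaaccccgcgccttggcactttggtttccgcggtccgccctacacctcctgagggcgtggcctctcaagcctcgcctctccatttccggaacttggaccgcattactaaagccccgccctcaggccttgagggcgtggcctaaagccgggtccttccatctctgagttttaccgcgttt
Rad51c: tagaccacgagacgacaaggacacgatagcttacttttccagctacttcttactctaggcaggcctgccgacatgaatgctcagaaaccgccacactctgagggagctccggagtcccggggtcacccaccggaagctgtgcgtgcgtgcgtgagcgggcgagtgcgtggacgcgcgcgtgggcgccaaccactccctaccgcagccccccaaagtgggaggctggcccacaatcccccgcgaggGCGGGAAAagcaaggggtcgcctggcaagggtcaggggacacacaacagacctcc
Xrcc6: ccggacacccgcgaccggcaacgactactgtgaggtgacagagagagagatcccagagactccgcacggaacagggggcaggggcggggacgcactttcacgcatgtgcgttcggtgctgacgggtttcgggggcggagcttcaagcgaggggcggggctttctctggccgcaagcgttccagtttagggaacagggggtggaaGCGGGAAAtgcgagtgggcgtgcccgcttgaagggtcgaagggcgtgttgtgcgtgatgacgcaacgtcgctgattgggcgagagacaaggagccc
In Bard1 the motif ran along the gene's strand and began 209 bases before the start. In Rad51c and Xrcc6 it lay on the other strand, where it reads GCGGGAAA along the gene, and began 5 and 46 bases before the start. Rad51c has another start in the RefSeq table, not printed here, whose window held TTTCGCGC.

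The starts of repair genes often lay back to back with that of a neighbour. In the GENCODE M21 annotation (GRCm38), 12 of the 41 genes (29.3%) had a protein-coding gene starting within 1000 bases on the other strand and running away from it, against 9.05% of all 15023 protein-coding genes in the count table. The 12 genes belonged to several roles: Fancb and Fancd2 of the Fanconi genes, Brca1, Palb2, Rad51b, Rad51c, Xrcc3 and Rad54l of homologous recombination, Atm and Chek2 of damage signalling, and Lig4 and Prkdc of end joining. Brca1 started 194 bases from Nbr1, and Palb2 started 56 bases from Dctn5. Prkdc, the catalytic subunit of DNA-dependent protein kinase, started 466 bases from Mcm4, a subunit of the replicative helicase. Counts over the 6 libraries were near equal in some pairs, with 94 for Rad51b and 90 for its partner Zfyve26, 76 for Xrcc3 and 64 for Zfyve21, and 156 for Brca1 and 184 for Nbr1. They were far apart in others, with 91 for Prkdc and 1552 for Mcm4, and 62 for Rad51c and 0 for Tex14, which starts 111 bases from it.

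Repair genes were detected at low to moderate counts. They held 6979 counts in all, 0.0942% to 0.115% of the counts of a male library and 0.11% to 0.117% of those of a female one. Enough counts for the test were found for 32 of the 41 (78.0%), against 54.2% of all protein-coding genes in the table. The 32 had between 62 and 972 counts over the 6 libraries, with a median of 21.6 CPM, against 43.2 CPM over all tested genes. The 9 that did not reach the test were Fanca, Fancb, Fanci, Ercc1, Trp53bp1, Xrcc4, Xrcc5, Lig4 and Nhej1, with 12 to 54 counts each. The 8 genes with the most counts, led by Rad50, held 52.2% of the total, and Rad50 alone held 13.9%. The 5 resection genes held 33.8% of repair gene counts and the 11 recombination genes 29.9%.

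**Figure D1:**
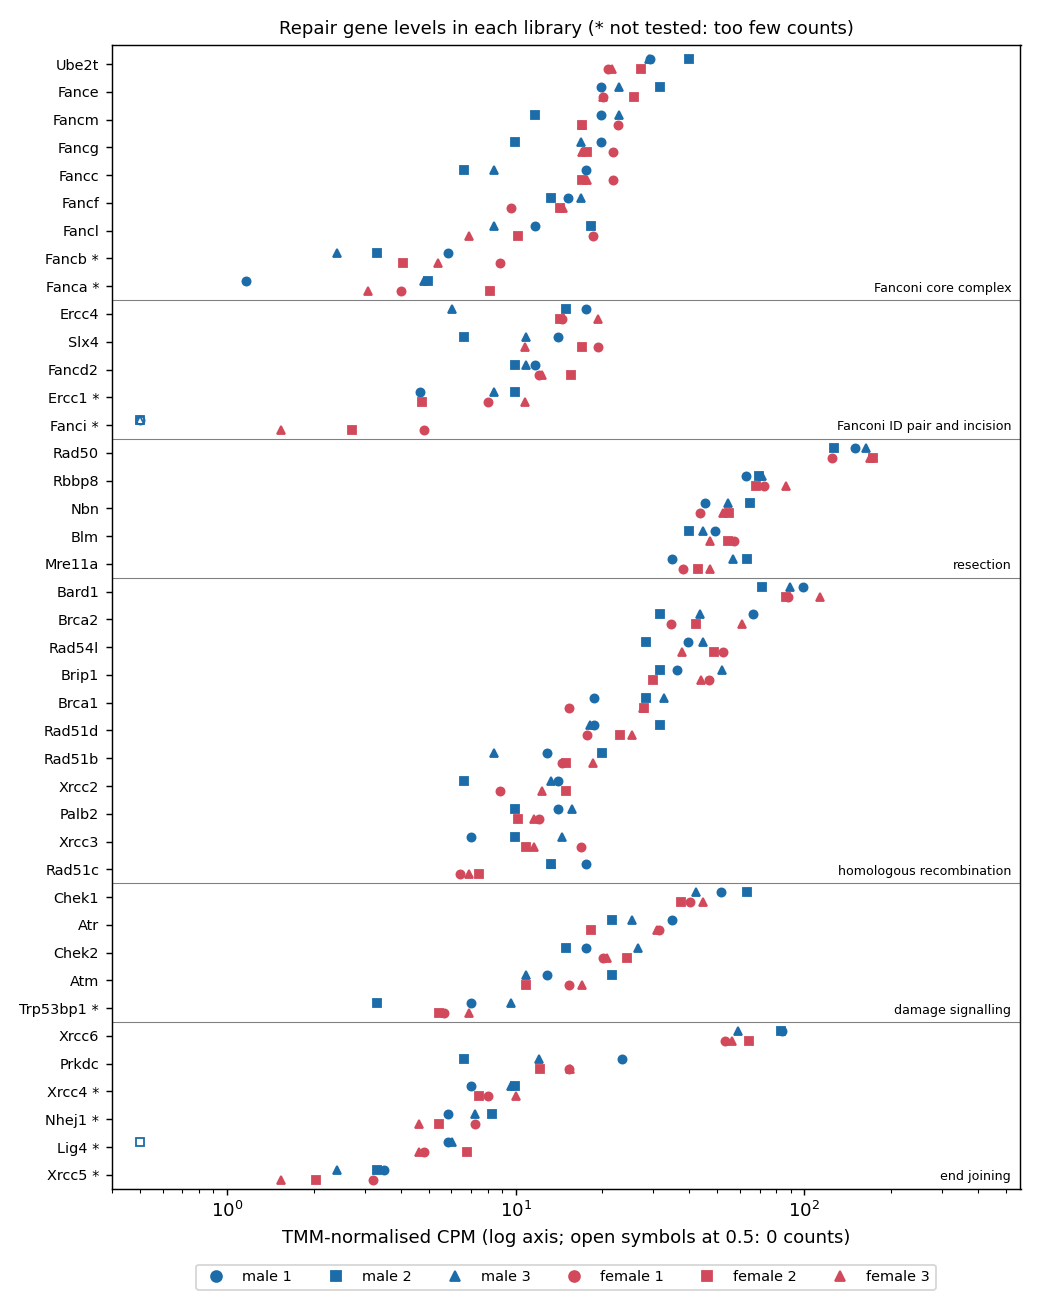
TMM-normalised CPM (x axis, log scale) of each of the 41 repair genes (rows, grouped by role) in the 3 male (blue, upper) and 3 female (red, lower) libraries; open symbols mark 0 counts and asterisks genes with too few counts for the test. Rad50 lies highest, with a mean of 151 CPM, and Fanci lies at 0 in the 3 male libraries.

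Levels were ordered by mean CPM over the 6 libraries and, since annotated exons differ in length, also per kilobase of annotated exon. Rad50, which holds DNA ends together in the complex of MRE11, RAD50 and NBN, led on both scales, with 151 CPM and 28.2 CPM per kilobase. Bard1, the partner of BRCA1, was rank 2 by CPM (91.1) and rank 3 per kilobase (16.1). Rbbp8, whose product CtIP starts the trimming of ends, was rank 3 by CPM (71.7) and rank 13 per kilobase. Xrcc6, a subunit of the Ku ring that grips DNA ends, was rank 4 on both scales, with 66.6 CPM and 14.9 CPM per kilobase. The lowest were Fanci, Xrcc5 and Fanca, with means of 1.51, 2.67 and 4.37 CPM. With reads from 3′ ends, CPM need not grow with length, so neither order is a measure of protein.

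Genes of partner proteins did not have equal counts. Ku is made of the products of Xrcc6 and Xrcc5 in equal parts, and Xrcc6 had 72, 50 and 49 counts in male replicates 1 to 3 and 66, 95 and 73 in female replicates 1 to 3. Xrcc5 had 3, 2 and 2 counts in the male libraries and 4, 3 and 2 in the female ones. The ratio was 25.3 over all libraries (exact 95% binomial interval 15.4 to 44.7, counting error only) and 14.4 per kilobase of exon. From summed counts it was 24.4 in males and 26.0 in females. Bard1 had 3.75 times the counts of Brca1 (interval 3.14 to 4.504), and 5.65 times per kilobase. Rad50 had 3.40 times the counts of Mre11a (2.98 to 3.89) and 2.98 times those of Nbn (2.63 to 3.39). Per kilobase these ratios were 3.75 to Mre11a and 1.41 to Nbn. Mre11a shares 154 exonic bases with Ankrd49 on the other strand, which had 523 counts. Xrcc6 shares 344 with Desi1 on the other strand, which had 293. The strand setting of the counting is unknown here, so the ratios with Mre11a and Xrcc6 are uncertain.

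**Figure D2:**
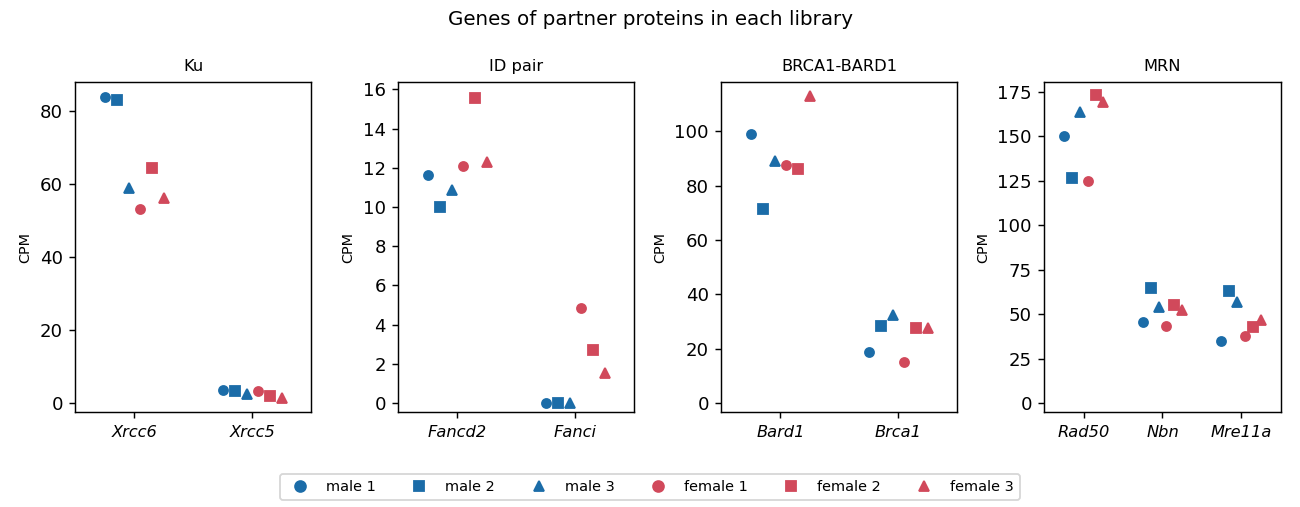
TMM-normalised CPM (y axis) of genes whose products form one complex, in each male (blue) and female (red) library; the panels show Ku, the FANCD2-FANCI pair, BRCA1 with BARD1, and the complex of MRE11, RAD50 and NBN. Xrcc6 lies far above Xrcc5 in all 6 libraries, and Bard1 above Brca1.

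Male and female cells were then compared to see whether repair genes differ in expression by sex. None of the 32 tested repair genes passed edgeR's quasi-likelihood test at a Benjamini-Hochberg adjusted p of 0.05, against 0.579% of all 8460 tested genes (0.426% higher and 0.154% lower in males). The smallest adjusted p among them was 0.220. At an unadjusted p under 0.05, edgeR called 3 of the 32 (9.38%), namely Fancc, Rad51c and Xrcc6, against 11.3% of all tested genes, DESeq2 called 1 (3.12%, against 5.9% of all tested genes) and limma-voom 2 (6.25%, against 11%), and neither of these called any after adjustment. The median log2 fold change, male minus female, was 0.014 over the 32 genes, with 17 above 0 and 15 below, and -0.0030 over all tested genes. All 3 male libraries lay above all 3 female ones in 2 of the 32 (6.25%; 7.57% of all tested genes), and below them in 1 (3.12%; 8.03%). The number of calls over all genes depended on single libraries, being 49 with all 6, 415 without male replicate 1, 23 without male replicate 3 and 32 without female replicate 2, while that of the repair genes was 0 in each case.

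The intervals show what these counts could have missed. In 27 of the 32 genes the 95% interval of the log2 fold change lay within 2-fold in either direction, and in 7 of them within 1.5-fold. For Rad50 it ran from 0.773-fold to 1.16-fold, for Bard1 from 0.735-fold to 1.15-fold and for Rbbp8 from 0.720-fold to 1.13-fold. The 5 genes whose interval reached past 2-fold were Fancc, Slx4, Ercc4, Rad51c and Xrcc3. The biological coefficient of variation, an estimate of spread between replicates beyond counting error, had a median of 0.082 in the repair genes and 0.083 over all tested genes. Each gene's estimate is drawn toward a trend shared by all genes. Near-equal medians therefore cannot show whether the repair genes' own spread is like that of other genes.

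**Figure D3:**
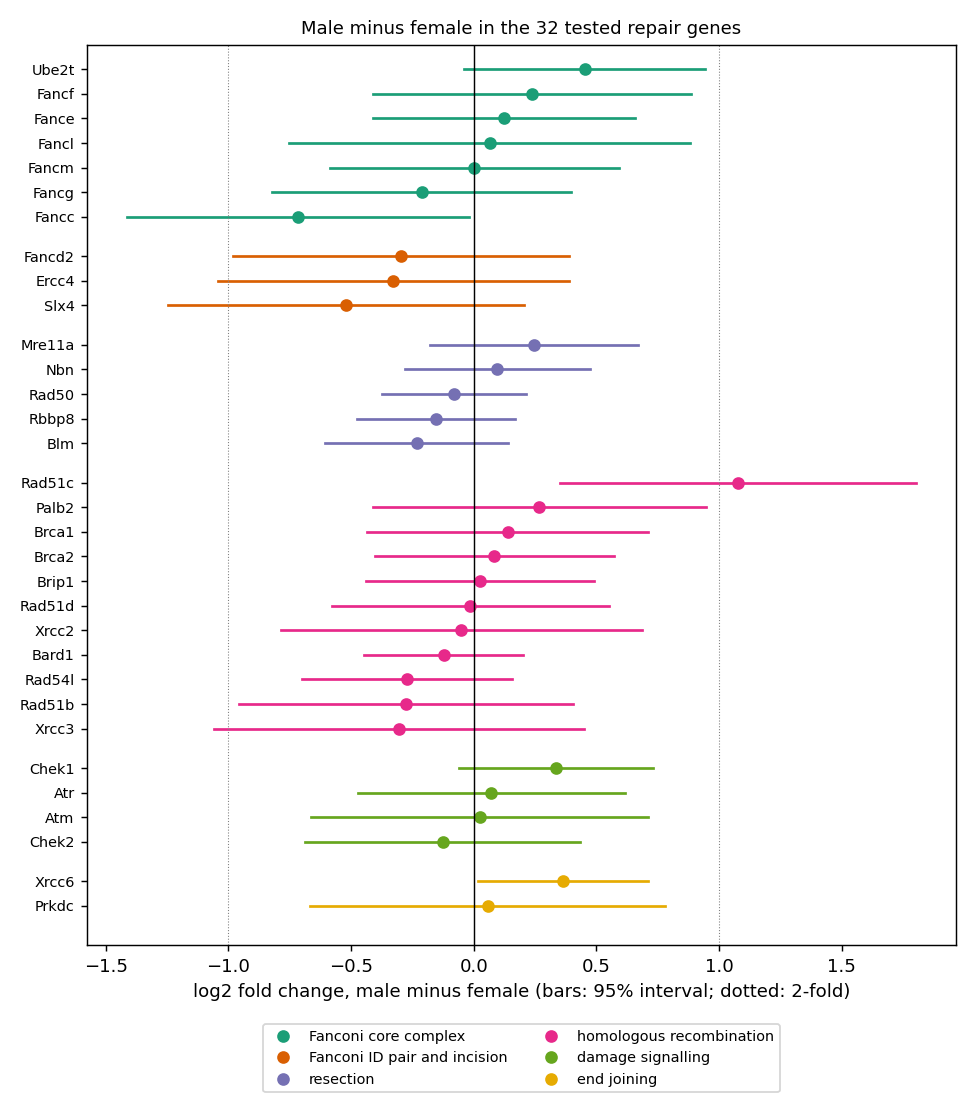
Log2 fold change, male minus female (x axis), of the 32 tested repair genes by role, with 95% intervals as bars; the dotted lines mark 2-fold. Rad51c has the highest value (1.08) and Fancc the lowest (-0.72), and the intervals of 29 genes include 0.

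The Fanconi core complex is the enzyme of the pathway. Of its 9 genes 7 were tested and none passed, with 5 log2 fold changes above 0 and 2 below. Fancc, an adaptor that helps to hold the FANCD2-FANCI pair to the complex, had 15, 4 and 7 counts in male replicates 1 to 3 and 27, 25 and 23 in female replicates 1 to 3. Normalised, these were 17.5, 6.65 and 8.43 CPM in males and 21.7, 16.9 and 17.7 in females, so male replicates 2 and 3 lay below every female library and male replicate 1 among them. Its log2 fold change was -0.72 ± 0.34 (SE, n = 3 each; edgeR's quasi-likelihood test, adjusted p = 0.419, and 0.0831 to 0.945 over the alternatives). It was -1.27 without male replicate 1 and -0.52 without male replicate 2. Fancc shares 185 exonic bases with 2010111I01Rik on the other strand.

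Ube2t, the enzyme that hands ubiquitin to the core complex, had 29.1, 39.9 and 28.9 CPM in male replicates 1 to 3 and 20.9, 27.1 and 21.5 in female ones, so that the groups did not overlap. Its log2 fold change of 0.45 ± 0.24 did not pass the test (edgeR's quasi-likelihood test, adjusted p = 0.489). Fance, another adaptor, averaged 24.8 ± 6.12 CPM in males and 21.96 ± 3.27 in females (SD, n = 3 each), with overlapping groups and a log2 fold change of 0.12 ± 0.26. Fancg, which binds FANCA, had a log2 fold change of -0.21, Fancf, which ties the adaptors together, one of 0.24, and Fancl, the catalytic ubiquitin ligase, one of 0.065. Fancm, the motor that brings the complex to DNA, had 0.0025. Fanca had 8 counts in males and 21 in females, and Fancb, the X-linked gene of the set, 9 and 24, too few for a test at these depths.

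The targets of the core complex and the incision genes were lower in male libraries in sum. Summed CPM of the 5 genes were 47.8, 41.6 and 36.1 in male replicates 1 to 3 and 58.8, 54.2 and 54.6 in female ones. The group sums did not overlap, and the ratio of means was 0.749 (0.696 to 0.799 with any 1 library left out, a range that reuses the same libraries). Sums of the other 5 role groups overlapped. Of single tested genes, 8.03% had every male library below every female one. How often such sums separate without a sex difference, here or in the lists below, was not tested. The sum of this group is a description of few counts, 320 over all libraries, and none of its 3 tested genes passed. Fancd2, which is ubiquitinated when a crosslink stalls replication, had 11.6, 9.98 and 10.8 CPM in males and 12.1, 15.6 and 12.3 in females. Its libraries did not overlap, but the log2 fold change of -0.30 ± 0.33 (SE, n = 3 each) did not pass (edgeR's quasi-likelihood test, adjusted p = 0.813). Slx4, the scaffold of the nucleases, averaged 10.5 ± 3.67 CPM in males and 15.7 ± 4.41 in females, a log2 fold change of -0.52 ± 0.35. Ercc4, which with ERCC1 forms the nuclease that cuts beside the crosslink, averaged 12.8 ± 6.02 CPM in males and 15.99 ± 2.82 in females, a log2 fold change of -0.33 ± 0.35. Ercc1, too low for the test, had 17 counts in males and 31 in females. Its libraries overlapped, with means of 7.69 ± 2.74 CPM in males and 7.86 ± 3.02 in females, so it hardly differed.

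Fanci, the partner of Fancd2, had 0 counts in each male library and 6, 4 and 2 counts in female replicates 1 to 3. It was the one repair gene with no count in a whole sex. The exact 95% counting interval of the male to female ratio, scaled for depth, ran from 0 to 0.631. This interval covers counting error only, and libraries of the same sex differed by more than that. Fanci was also picked out after its counts were seen, and the interval makes no allowance for that choice. How often genes with such low counts lack any count in a whole sex was not tested. With 12 counts in all Fanci was too low for the test. Fanci (chromosome 7, 79391929 to 79450264, GRCm38, plus strand) shares 921 exonic bases with Polg on the other strand, which had 94 counts, and the strand setting of the counting is unknown here. B lineage and plasma cell genes were also lower in male libraries, as given above, and their part in the Fanconi values was not tested.

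**Figure D4:**
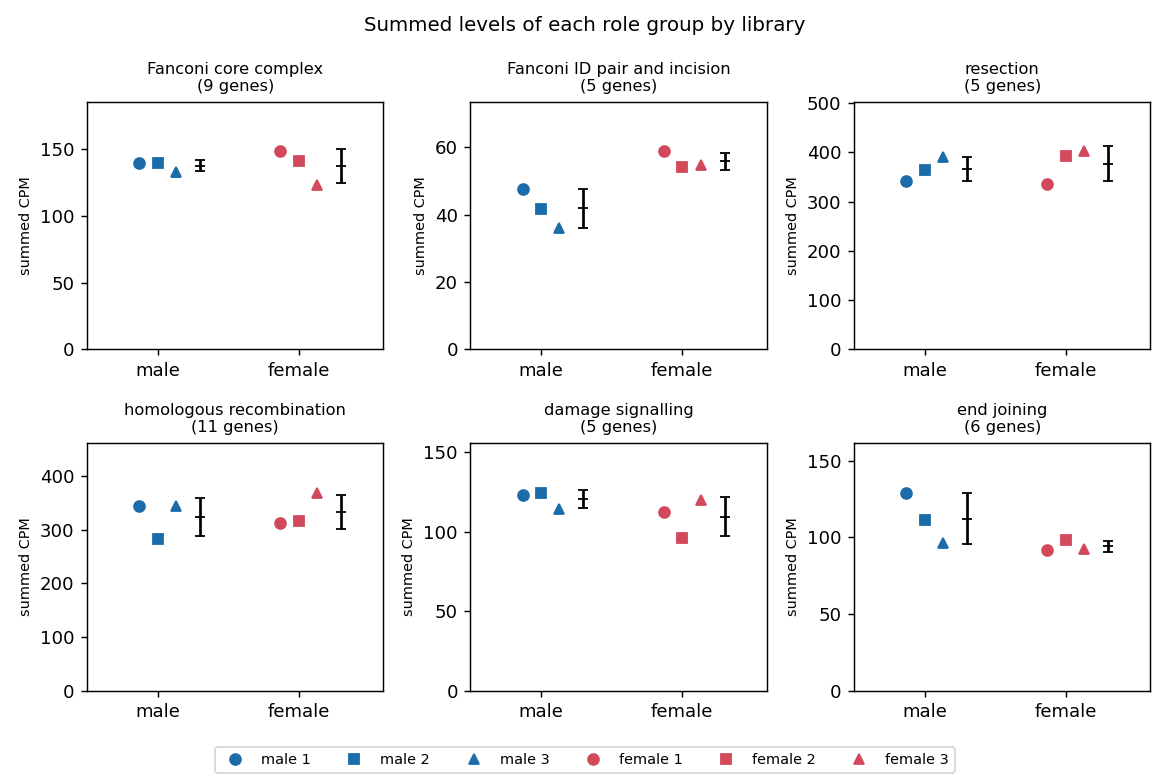
Summed TMM-normalised CPM (y axis, from 0) of the genes of each role group, with a point for each male (blue, left) and female (red, right) library and the mean with its SD beside them. The FANCD2-FANCI and incision group does not overlap between the sexes (36.1 to 47.8 CPM in males, 54.2 to 58.8 in females), and the other 5 groups do.

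Resection trims broken ends into single strands and commits them to recombination. All 5 of its genes were tested, none passed, and their log2 fold changes lay between -0.23 and 0.25. Rad50 had 150, 126 and 164 CPM in male replicates 1 to 3 and 125, 173 and 169 in female ones. The sexes overlapped fully, and the log2 fold change was -0.079 ± 0.14 (SE, n = 3 each; edgeR's quasi-likelihood test, adjusted p = 0.896). Rbbp8 averaged 67.9 ± 4.42 CPM in males and 75.5 ± 9.59 in females, with a log2 fold change of -0.15 ± 0.16. The nuclease gene Mre11a and Nbn, which recruits the kinase ATM, had log2 fold changes of 0.25 and 0.097, and Blm, a helicase that unwinds recombining strands, had -0.23. The 5 genes summed to 366 ± 24.0 CPM in males and 377 ± 35.8 in females.

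Homologous recombination uses the trimmed strand to find and copy a matching sequence. All 11 genes were tested, none passed, and 5 log2 fold changes lay above 0 and 6 below. Rad51c, which acts in homologous recombination, lies on chromosome 11 (87376645 to 87404954, GRCm38, minus strand). It had 15, 8 and 11 counts in male replicates 1 to 3 and 8, 11 and 9 in female replicates 1 to 3, from the deeper female libraries. Normalised, these were 17.5, 13.3 and 13.3 CPM in males and 6.44, 7.45 and 6.93 in females, so that every male library lay above every female one. The log2 fold change was 1.08 ± 0.35 (SE, n = 3 each), and it did not pass (edgeR's quasi-likelihood test, adjusted p = 0.220, and 0.220 to 0.652 over the alternatives). Its value stayed between 0.92 and 1.16 over 13 alternatives, and the gene was dropped by the stricter filter. The gene that starts back to back with it, Tex14, had no counts.

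Log2 fold changes of the other recombination genes lay between -0.30 and 0.27. Rad51b, Rad51d, Xrcc2 and Xrcc3 had log2 fold changes of -0.28, -0.013, -0.050 and -0.30, with libraries that overlapped. Bard1 had 99.0, 71.5 and 89.2 CPM in male replicates 1 to 3 and 87.8, 86.0 and 113 in female ones, a log2 fold change of -0.12 ± 0.16. Its partner Brca1, the ligase that directs breaks to recombination, averaged 26.5 ± 7.12 CPM in males and 23.6 ± 7.18 in females, a log2 fold change of 0.14 ± 0.28. Brca2, a mediator of strand exchange, had 66.4, 31.6 and 43.4 CPM in males and 34.6, 42.0 and 60.8 in females, and the spread within each sex was wider than the difference between them. Palb2, which links BRCA1 and BRCA2, and the helicase gene Brip1 had log2 fold changes of 0.27 and 0.027. Rad54l, a motor that helps strands to pair, had -0.27, and it shares 1184 exonic bases with Lrrc41 on the other strand, which had 16 counts.

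Damage signalling genes tell the cell that DNA is broken or replication is stalled. Of 5 genes 4 were tested and none passed. Chek1, the kinase that slows the cell cycle under the kinase ATR, had 51.2, 63.2 and 42.2 CPM in male replicates 1 to 3 and 40.3, 37.3 and 44.6 in female ones. Male replicate 3 lay within the female range, and the log2 fold change of 0.34 ± 0.19 did not pass (edgeR's quasi-likelihood test, adjusted p = 0.534). Atr averaged 27.3 ± 6.88 CPM in males and 26.8 ± 7.40 in females, a log2 fold change of 0.073 ± 0.26, and the break-sensing kinase gene Atm had 0.025. Chek2, the kinase that acts under ATM, had -0.13. Trp53bp1, whose product restrains resection, had 16 counts in males and 24 in females.

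End joining was carried in the counts mainly by Xrcc6. Xrcc6 had 83.9, 83.2 and 59.0 CPM in male replicates 1 to 3 and 53.2, 64.3 and 56.2 in female replicates 1 to 3, so male replicates 1 and 2 lay above every female library and male replicate 3 among them. The log2 fold change was 0.36 ± 0.17 (SE, n = 3 each; edgeR's quasi-likelihood test, adjusted p = 0.403, and 0.349 to 0.952 over the alternatives). Xrcc6 shares 344 exonic bases with Desi1 on the other strand, which had 293 counts against 405 of Xrcc6. Prkdc had 23.3, 6.65 and 12.0 CPM in male replicates 1 to 3 and 15.3, 12.2 and 15.4 in female ones. The male libraries spread on both sides of the female ones, and the log2 fold change was 0.058 ± 0.35. Xrcc4, the scaffold of DNA ligase IV, the ligase gene Lig4 and the cofactor gene Nhej1 had 20, 10 and 16 counts in males and 34, 22 and 23 in females, and Lig4 had none in male replicate 2. Xrcc5 had 7 counts in males and 9 in females.

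Other genes of the same pathways were read from the same fit, and none of the 64 tested among 72 such genes passed. In the other Fanconi genes, 13 of 18 were tested, with a median log2 fold change of -0.091. Usp1, which removes ubiquitin from FANCD2, averaged 255 ± 22.7 CPM in males and 294 ± 43.4 in females, and Cenpx, a partner of FANCM, 163 ± 31.7 and 125 ± 17.3 (log2 fold changes -0.21 and 0.38). In the other recombination genes all 25 were tested, with a median of 0.083. Sem1, a small partner of BRCA2, averaged 665 ± 98.3 CPM in males and 560.2 ± 33.7 in females, and Swi5, which also acts in recombination, 369 ± 49.1 and 314 ± 21.0. In the other signalling genes all 17 were tested, with a median of -0.028 and 14 of 17 values below 0. Their summed CPM did not overlap, at 1354 to 1481 in males and 1548 to 1616 in females. In 4 genes (23.5%, against 8.03% of all tested genes) every male library lay below every female one, namely Mdc1, Clspn, Trp53 and Wee1. In Rnf168 (5.88%, against 7.57%) every male library lay above. An unadjusted p under 0.05 by edgeR was found for 4 of the 17 (23.5%, against 11.3% of all tested genes), which are named after their values were seen. Mdc1, which gathers repair factors at marked histones, had a log2 fold change of -0.68 ± 0.22, and Clspn, which helps to activate CHEK1, one of -0.45 ± 0.16. The others were Topbp1, an activator of ATR, whose libraries overlapped (-0.29 ± 0.13), and Trp53. H2ax, the histone marked at breaks, averaged 396 ± 19.9 CPM in males and 402 ± 22.5 in females. Trp53, the gene of the p53 factor, averaged 250.4 ± 20.2 CPM in males and 315 ± 2.52 in females, and its libraries did not overlap (log2 fold change -0.33 ± 0.12; edgeR's quasi-likelihood test, adjusted p = 0.273). In the other end joining genes 9 of 12 were tested, with a median of 0.069, and Parp1, a sensor of breaks, averaged 258 ± 25.9 CPM in males and 247 ± 16.9 in females.

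Targets of p53 respond when damage signalling is active. Of 20 such genes 13 were tested and none passed, with 8 log2 fold changes above 0 and 5 below and a median of 0.18. Their summed CPM did not overlap, at 671 to 732 in males and 607 to 643 in females. An unadjusted p under 0.05 by edgeR was found for 3 (23.1%, against 11.3% of all tested genes). Beside Btg2 these were, named after their values were seen, Pmaip1, a trigger of cell death, with a log2 fold change of 0.85 ± 0.27, and Gadd45a, a damage response gene, with 0.61 ± 0.26. Every male library lay above every female one in 2 targets (15.4%, against 7.57% of all tested genes), Btg2 and Pmaip1. In 2 others (15.4%, against 8.03%) every male library lay below, Sesn1 (log2 fold change -0.29 ± 0.20) and Trp53inp1 (-0.64 ± 0.40). The targets Cdkn1a and Mdm2 overlapped between the sexes, with log2 fold changes of 0.18 and -0.12. Btg2, which slows proliferation, averaged 175 ± 9.29 CPM in males and 129 ± 9.08 in females, with every male library above every female one (log2 fold change 0.45 ± 0.12; edgeR's quasi-likelihood test, adjusted p = 0.118). Bax, which triggers cell death, averaged 89.1 ± 12.8 CPM in males and 81.5 ± 12.7 in females. Many repair genes are made mainly in dividing cells, so genes of the cell cycle were set beside them. The 37 genes of S phase and replication summed to 5749 to 5920.4 CPM in males and 5659 to 5848 in females, and the 18 genes of mitosis to 2967 to 3179 and 3030.4 to 3466. No tested gene of either list passed, with medians of -0.0075 over 36 genes and -0.019 over 18. Every male library lay above every female one in 6 of the 36 (16.7%, against 7.57% of all tested genes) and below in 2 (5.56%, against 8.03%). Of the 18 genes of mitosis, 0 lay above in this way and 1 (5.56%) below. An unadjusted p under 0.05 by edgeR was found for 3 of the 36 (8.33%, against 11.3%) and 1 of the 18 (5.56%). Without male replicate 1, 5 of the genes outside the 41 that were listed for context passed, with Cenpx, Rpa3, Tyms and Adh5 higher in males and Plk1 lower.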

How the data were processed

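The values deposited by the authors are raw counts of reads per gene, not normalised, as the file headers and their whole numbers show. Per the submitters' processing notes, processing named the builds GRCm38 and GRCh38 and used DESeq2, featureCounts 2.0.1, HISAT2 2.2.1, Trim Galore 0.6.7 and UMI-tools, in roles the notes leave out. The collapse of molecular identifiers and the strand setting are not stated there, so PCR copies may be included, intervals of count ratios cover counting error only, and 15 repair genes that share exonic bases with another counted gene are uncertain. Per the file headers, the barcodes of the 6 samples shared a pool with 10 lung samples not analysed here. All 21606 gene identifiers matched GENCODE M21 (GRCm38), with 0 on another chromosome.

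Genes were filtered with filterByExpr (minimum count 10, minimum total 15; 8460 kept), scaled by TMM and tested for male minus female with the quasi-likelihood F test of edgeR 4.0.16 in R 4.3.3, with no covariate and Benjamini-Hochberg adjustment over all tested genes at 0.05. CPM are per scaled counts of tested genes. SE is the absolute log2 fold change over the square root of F, and 95% intervals use its t distribution. Members, gene lists and tests were chosen with earlier results of these data known. The genes given in full are those with an adjusted p of at most 0.05 or an unadjusted p under 0.05, those whose libraries do not overlap, and the 2 tested genes with the most counts per role; of other lists, the 2 with the highest CPM, of which 1 is not reported here. Brca1 and genes given by fold change alone were added to account for each gene. On simulated data for this comparison, with 200 of 8292 genes changed, the test called 15.5%, 84.8% and 100% of genes with true log2 changes of 0.5, 1 and 2. The changed genes were drawn from all tested genes, with the same spread for every gene. The median of all tested genes was 43.2 CPM, against 21.6 CPM in the tested repair genes, so these shares need not hold for repair genes. Pairs of libraries of a sex differed by more than counting error (chi-square per degree of freedom 1.98 to 4.09). The alternatives tried were scaling by RLE, upper quartile or library size, a stricter filter or none, DESeq2 1.42.0, limma-voom (limma 3.58.1), the replicate number as a block, and leaving out each library.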

Additional observations from a re-analysis of the deposited data

How the results depend on the processing

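None of the repair genes passed under any of the 14 alternatives, at 0 calls each. Over all genes, the calls numbered 49, and 116 with no filter, 78 with the replicate number as a block, and 23 to 415 with 1 library left out (lowest without male replicate 3, highest without male replicate 1). Scaled by library size alone, 29 genes were higher in males and 23 lower, a share of 55.8% in place of 73.5%. The context lists had 0 calls, and 0 to 5 with 1 library left out. The replicate numbers are not stated to pair the samples: same-numbered libraries deviated together only weakly (correlations 0.026, 0.0289 and 0.0439), although each library correlated best with its own number, and the block called 0 repair genes.

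Of 209 values of 15 repair genes over the alternatives, 16 changed sign, in 7 genes. Scaled by library size alone, the log2 fold changes of Atr, Brca2 and Prkdc were -0.016, -0.00074 and -0.028, and Prkdc was -0.049 by limma-voom and -0.018 with the replicate block. With 1 library left out, Atr ran from -0.16 to 0.199, Bard1 from -0.23 to 0.014, Brca2 from -0.26 to 0.33, Ercc4 from -0.69 to 0.043, Fance from -0.052 to 0.27, Prkdc from -0.53 to 0.32 and Rad50 from -0.21 to 0.0092. The cause was not tested. The median over the 32 tested genes ran from -0.077 to 0.036, and was -0.076 by library size alone, where that of all genes was -0.092. Depth limits the 9 genes with under 62 counts.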

Other observations

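Repair pathways that act on single damaged bases and bulky lesions were measured in the same libraries. All 19 nucleotide excision repair genes were tested and none passed at an adjusted p of 0.05 (edgeR), with a median log2 fold change, male minus female, of 0.089. Ddb1, part of a complex that recognises damage from ultraviolet light, averaged 272 ± 38.0 CPM in males and 276 ± 13.3 in females. Rad23b, which helps to find distorted DNA, averaged 209 ± 10.7 and 197 ± 14.1 (SD, n = 3 each). Of 21 mismatch and base excision repair genes 12 were tested and none passed, with a median of -0.077. Msh6, a gene of mismatch repair, averaged 61.8 ± 5.55 CPM in males and 71.0 ± 12.1 in females.

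Of the enzymes that clear aldehydes before they reach DNA, all 7 were tested and none passed. Their log2 fold changes ran from -0.13 to 0.97, with 5 above 0, 2 below and a median of 0.12. An unadjusted p under 0.05 by edgeR was found for 2 (28.6%, against 11.3% of all tested genes). The male and female libraries overlapped in each of the 7. Aldh2, which oxidises acetaldehyde, averaged 453 ± 41.8 CPM in males and 406 ± 36.0 in females. Adh5, which clears formaldehyde, averaged 219.5 ± 51.98 CPM in males and 165 ± 7.47 in females, which is 0.39 ± 0.14 on the log2 scale (adjusted p = 0.265 by edgeR, and 0.00917 without male replicate 1). Its male and female libraries overlapped.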
